A study of Mus musculus with 22 samples.

Results

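The genes described here encode the pore-forming and beta subunits of the neuronal high-voltage-activated calcium channels. They are the 9 mouse genes Cacna1a, Cacna1b, Cacna1c, Cacna1d, Cacna1e, Cacnb1, Cacnb2, Cacnb3 and Cacnb4. They were chosen by symbol among 55385 genes and not by a rule on their values, though earlier results of these data were known. Ribosome-bound mRNA was measured with RiboTag, in which Cre recombinase switches on an HA-tagged copy of the ribosomal protein Rpl22 in 1 cell population, and tagged ribosomes are then pulled from a homogenate of the brain region with their mRNA. All groups were Cre-positive mice aged 6 weeks that carried 1 floxed Rpl22 allele (Rpl22 Fl/+), and each of the 6 cell types had 3 replicates.

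Dentate gyrus granule cells (hippocampus) and layer V cortical neurons (cortex) both came from Rbp4-Cre mice, cerebellar granule cells from Gabra6-Cre mice (cerebellum) and inhibitory interneurons from Dlx6a-Cre mice (hippocampus). Astrocytes came from the cortex of mice labelled Aldh1-cre, and microglia from the cortex of mice labelled Tmem119-cre. The study's methods name both glial drivers as tamoxifen-inducible lines (Aldh1l1-CreERT2 and Tmem119-CreERT2). Each interneuron library pooled the hippocampi of 2 mice. Layer V neurons, astrocytes and microglia were all taken from cortex, and dentate granule cells and interneurons from hippocampus. In comparisons between regions, which include every one with cerebellar granule cells, cell type and brain region cannot be told apart.

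As background, a high-voltage-activated calcium channel opens on strong depolarisation and lets calcium into the cell. Its pore is 1 large alpha1 protein. Cacna1a encodes the pore of P/Q-type channels and Cacna1b that of N-type channels, which together trigger transmitter release at most central synapses. Cacna1e encodes the R-type pore. Cacna1c and Cacna1d encode the L-type pores Cav1.2 and Cav1.3, which sit largely on cell bodies and dendrites and couple activity to gene expression and pacemaking. The beta subunits, encoded by Cacnb1 to Cacnb4, bind the pore from the cytoplasm, help it reach the membrane and set its gating. Mutations of Cacna1a and Cacnb4 underlie the ataxic mouse mutants tottering and lethargic.

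The 18 libraries used held between 38270477 and 71440915 estimated read counts. For 4 of the 18 replicates a second library sequenced in batch 2 exists, and the batch 1 library was used. All interneuron and microglia libraries were sequenced in batch 2 and all other libraries used were sequenced in batch 1. One second-batch library of layer V neurons went against its sex label and enters only alternative settings. Of the defining markers, Gabra6 averaged 3895 TPM (transcripts per 1000000) in cerebellar granule cells and at most 0.2 elsewhere, Prox1 averaged 167 TPM in dentate granule cells, and Gad1 averaged 2029 TPM in interneurons and 149.5 TPM in dentate granule cells. Fezf2 and Pou3f1 were highest in layer V neurons, whereas the other layer V markers, Bcl11b, Etv1 and Bcl6, were higher in another type. The summed level of 5 oligodendrocyte markers was between 2612 and 2795 TPM in the interneuron libraries and at most 399.7 TPM in the other neuron types. That sum was between 768 and 982 TPM in astrocytes and between 449 and 536 TPM in microglia. The summed level of 5 pan-neuronal markers was between 826 and 1090 TPM in astrocytes and between 383 and 429.5 TPM in microglia, against 3221 TPM or more in every neuron library, and none of these markers was at 0 in glia. Their part in the results below was not tested. In these bulk samples, fewer cells of a type and less RNA per cell cannot be told apart.

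Each member was measured well: the lowest estimated count of any member in any of the 18 libraries was 112, for Cacnb2 in a cerebellar granule cell library. Levels are given as TPM, which corrects for transcript length and so can be compared between genes. Differences between cell types were tested on gene-level estimated counts with edgeR's quasi-likelihood test and are given as log2 fold changes with standard errors (SE), with Benjamini-Hochberg adjustment over the 20524 genes tested. A gene was called at an adjusted p of at most 0.05. Because these cell types differ in most genes, a second and stricter call also required a 2-fold difference.

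As a group, the neuron types had more of each of the 9 channel mRNAs than the glial types, by very different amounts. In the comparison of 4 neuron types with 2 glial types, 83.3% of all genes tested were called (36.4% higher and 46.8% lower in neurons), and all 9 members were called higher in neurons. At least 2-fold higher were 7 of the 9 members, whereas 15.9% of all genes were. The median log2 fold change was 1.86 for the members and -0.18 for all genes tested. Cacnb4 led, with a log2 fold change of 3.18 (SE 0.06, adjusted p = 1.82e-18), followed by Cacna1c at 2.08 (SE 0.04) and Cacna1e at 2.02 (SE 0.08). Cacnb2, at 0.96 (SE 0.06), and Cacna1d, at 0.27 (SE 0.04), were higher by less than 2-fold, and Cacna1d lost its call when average transcript length was taken into account (0.08, adjusted p = 0.177). The group difference hid overlap, since the TPM ranges of neuron and glia libraries overlapped for 5 members, namely Cacna1d, Cacna1e, Cacnb1, Cacnb2 and Cacnb3.

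**Figure D1:**
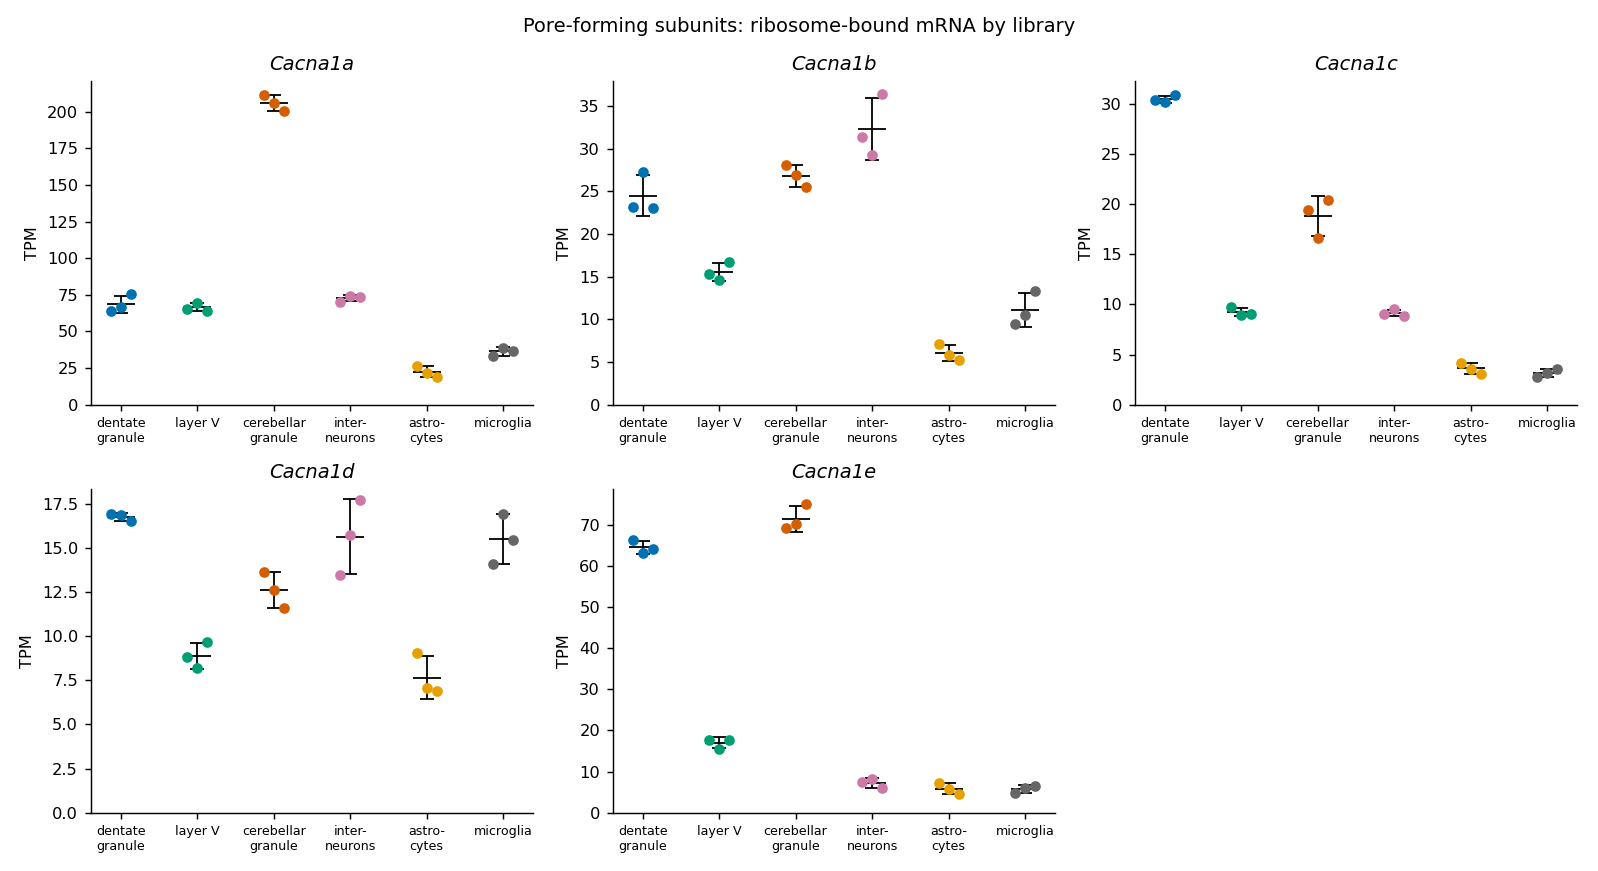
Level (TPM, linear axes from 0) of the 5 pore-forming genes in each of the 18 libraries, by cell type. Points are libraries, and the black bar and whiskers are the mean and SD of 3. Cerebellar granule cells stand apart for Cacna1a (201 to 211 TPM), dentate granule cells for Cacna1c (30.2 to 30.9 TPM), and both granule cell types for Cacna1e.

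Cacna1a, the P/Q-type pore, had the highest mean TPM of the 5 pore genes in each of the 6 cell types, although its dentate libraries overlapped with those of Cacna1e. With transcripts of at least 2000 bases only, a setting chosen after seeing the data, dentate Cacna1a averaged 37.7 TPM, below Cacna1e. The summed Cacna1a level in cerebellar granule cells was 211, 206 and 201 TPM, a mean of 206 ± 5.26 TPM (SD, n = 3). The 9 libraries of the other neuron types lay between 64 and 75.2 TPM, far below and in a narrow band. Cerebellar granule cells exceeded the other 3 neuron types by a log2 fold change of 2.13 (SE 0.06, adjusted p = 1.98e-15), with 2.28 within batch 1 and 2.22 within batch 2. Interneurons (70.4, 74 and 73.4 TPM), dentate granule cells (64, 66.3 and 75.2 TPM) and layer V neurons (65.6, 69.5 and 64.2 TPM) overlapped in part. Among these, interneurons were called above dentate granule cells by 0.30 (SE 0.09, adjusted p = 0.00615), and dentate and layer V cells were not called different (adjusted p = 0.653).

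Cacna1b, the N-type pore, differed less between the neuron types than Cacna1a. Interneurons had 31.3, 29.3 and 36.4 TPM, cerebellar granule cells 28.1, 26.9 and 25.5 TPM, and dentate granule cells 23.2, 27.3 and 23 TPM. Layer V neurons were the low group, at 15.3, 14.6 and 16.7 TPM, and did not overlap with any other neuron type. Their log2 fold change against the other 3 neuron types was -0.54 (SE 0.06, adjusted p = 5.01e-07). The TPM lead of interneurons over cerebellar granule cells did not show in the counts (log2 fold change -0.01, adjusted p = 0.872). The ratio of Cacna1a to Cacna1b followed these differences, from 2.26 ± 0.255 in interneurons and 2.82 ± 0.42 in dentate granule cells to 4.3 ± 0.453 in layer V neurons and 7.68 ± 0.179 in cerebellar granule cells (SD, n = 3).

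Cacna1e, the R-type pore, divided the neurons into granule cells and the rest. Cerebellar granule cells had 69.1, 70 and 75 TPM and dentate granule cells 66.3, 63.1 and 63.9 TPM. Layer V neurons had 17.7, 15.5 and 17.7 TPM, and interneurons only 7.34, 8.27 and 6.06 TPM. The granule cell types did not differ on counts (log2 fold change of cerebellar over dentate -0.09, SE 0.12, adjusted p = 0.516). The interneuron level was not distinguishable from that of astrocytes, which had 7.21, 5.76 and 4.63 TPM (log2 fold change -0.06, SE 0.12, adjusted p = 0.704). Against the other 3 neuron types, interneurons were lower by a log2 fold change of -2.65 (SE 0.12, adjusted p = 1.37e-12), and within batch 2, where each other neuron type has 1 library, by -2.72. For layer V neurons, the difference from the other 3 types was -0.51 (adjusted p = 0.000284). It was -1.57 within batch 1, where interneurons are absent, and lost its call within batch 2 (-0.45, adjusted p = 0.0647).

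The L-type pore gene Cacna1c was highest in dentate granule cells, at 30.4, 30.2 and 30.9 TPM, and cerebellar granule cells followed at 19.5, 16.6 and 20.5 TPM. Layer V neurons (9.72, 8.96 and 9.01 TPM) and interneurons (9.01, 9.51 and 8.89 TPM) overlapped, and glia were at 4.19 TPM or below. Dentate granule cells exceeded the other 3 neuron types by a log2 fold change of 1.46 (SE 0.05, adjusted p = 1.19e-14), with 1.17 within batch 1 and 1.41 within batch 2.

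Cacna1d differed least between neurons and glia among the 9 members. Its libraries ran only from 6.88 to 17.7 TPM over all 6 cell types, and microglia, at 14.1, 16.9 and 15.5 TPM, lay above layer V neurons, at 8.79, 8.2 and 9.65 TPM. Dentate granule cells (16.9, 16.9 and 16.5 TPM) were called higher than the other 3 neuron types (log2 fold change 0.70, SE 0.06, adjusted p = 4.16e-09). Interneurons were called lower than the other 3 types on counts (log2 fold change -0.19, adjusted p = 0.00945), while on log2(TPM + 1) they were higher (0.31, adjusted p = 0.00594), so no direction is given for them. Among microglia and astrocytes, Cacna1d was lower in astrocytes by a log2 fold change of -0.69 (SE 0.07, adjusted p = 8.9e-08). The ratio of Cacna1c to Cacna1d fell from 1.82 ± 0.0452 in dentate granule cells to 0.592 ± 0.0842 in interneurons and 0.204 ± 0.0212 in microglia (SD, n = 3). These ratios count all transcripts. In interneurons, protein-coding transcripts held 83.9% of the Cacna1c TPM but 23.6% of the Cacna1d TPM. The order of the 2 genes there therefore depends on which transcripts are counted.

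**Figure D2:**
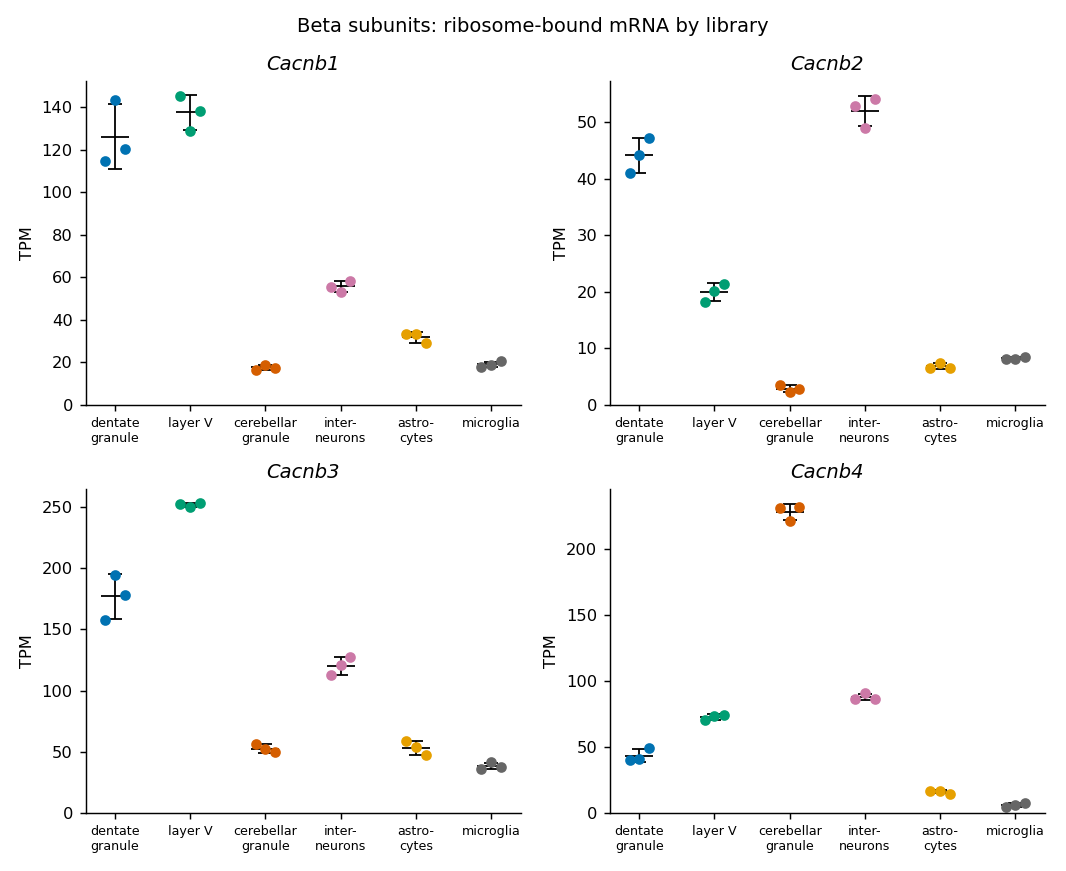
Level (TPM, linear axes from 0) of the 4 beta subunit genes in each of the 18 libraries, by cell type. Points are libraries, and the black bar and whiskers are the mean and SD of 3. Cerebellar granule cells are highest for Cacnb4 (221 to 232 TPM) and among the lowest for Cacnb1, Cacnb2 and Cacnb3, while layer V neurons are highest for Cacnb3 (250 to 254 TPM).

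Cacnb4 and Cacnb2 separated cerebellar granule cells from every other cell type, at the top and the bottom of the order. Cacnb4 reached 231, 221 and 232 TPM there. It was 86.2, 90.7 and 86.6 TPM in interneurons, 70.4, 73.8 and 74.4 TPM in layer V neurons and 39.7, 41 and 48.8 TPM in dentate granule cells. Each neuron type had its own band with no overlap in TPM, although interneurons and layer V neurons were not called different on counts (adjusted p = 0.108). Cerebellar granule cells exceeded the other 3 neuron types by a log2 fold change of 1.82 (SE 0.06, adjusted p = 1.95e-14), with 2.00 within batch 1 and 1.92 within batch 2. Dentate granule cells fell below the other 3 types by -1.49 (SE 0.08, adjusted p = 9.34e-12). Glial levels were far lower, with 16.9, 16.5 and 14.4 TPM in astrocytes and 4.25, 6.11 and 7.07 TPM in microglia.

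Cacnb3 was the most abundant beta subunit gene in 5 of the 6 cell types. It was highest in layer V neurons, at 253, 250 and 254 TPM, and followed in dentate granule cells at 158, 195 and 178 TPM. Interneurons had 113, 121 and 127 TPM. In cerebellar granule cells it fell to 56.1, 52.1 and 49.4 TPM, a range that overlapped with that of astrocytes (58.8, 53.6 and 46.9 TPM). Layer V neurons exceeded the other 3 neuron types by a log2 fold change of 1.50 (SE 0.04, adjusted p = 7.22e-15), and cerebellar granule cells fell below the other 3 by -1.71 (SE 0.05, adjusted p = 3.84e-15).

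Cacnb1, best known as the skeletal muscle beta subunit and also expressed in brain, was highest in layer V neurons and dentate granule cells. Layer V neurons had 145, 129 and 138 TPM and dentate granule cells 115, 143 and 120 TPM, and these ranges overlapped. Interneurons were lower, at 55.5, 53 and 58.3 TPM. Cerebellar granule cells had only 16.4, 18.7 and 17.3 TPM, overlapping with microglia (17.8, 18.8 and 20.3 TPM). The log2 fold change of cerebellar granule cells against the other 3 neuron types was -2.57 (SE 0.06, adjusted p = 8.58e-17), with -2.99 within batch 1 and -2.42 within batch 2.

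Cacnb2, the main beta subunit of heart muscle channels, had the widest range of the 9 genes among neuron types as a ratio of the highest to the lowest mean. Interneurons had 52.8, 48.9 and 54.1 TPM, dentate granule cells 41, 44.2 and 47.2 TPM and layer V neurons 18.1, 20.2 and 21.3 TPM. Cerebellar granule cells had 3.51, 2.15 and 2.78 TPM, below astrocytes (6.52, 7.41 and 6.4 TPM) and microglia (8.01, 8.12 and 8.39 TPM) with no overlap. Cerebellar granule cells were lower than the other 3 neuron types by a log2 fold change of -4.01 (SE 0.10, adjusted p = 7.77e-17), with -3.97 within batch 1 and -3.76 within batch 2. The lead depended on the unit, since by TPM interneurons were 1.18 times dentate granule cells, whereas on counts they were lower by a log2 fold change of -0.49 (SE 0.08, adjusted p = 5.39e-05). With transcripts of at least 2000 bases only, a setting chosen after seeing the data, the mean TPM was 40.6 in dentate granule cells and 29.2 in interneurons.

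Taken by cell type, cerebellar granule cells had the most members past the stricter call, but also the most genes called of any neuron type. There 77.9% of all genes were called (34.9% higher and 43% lower), as were 8 of the 9 members (5 higher and 3 lower). At least 2-fold higher were 3 members (Cacna1a, Cacnb4 and Cacna1e), against 14.5% of all genes. At least 2-fold lower were another 3 (Cacnb1, Cacnb2 and Cacnb3), a count near the share of 29.1% of all genes. For Cacna1e, cerebellar granule cells did not differ from dentate granule cells on counts, as given above. Its log2 fold change against the other neuron types was 0.77 within batch 1, where interneurons are absent, and 1.66 within batch 2. The median of all genes in this comparison was -0.21, and scaling by library totals alone moved it to -0.38. No member past the 2-fold call turned direction under that scaling. Cacna1b, higher by 0.25, lost its call there (0.08, adjusted p = 0.265), and Cacna1d, not called with TMM scaling (0.03, adjusted p = 0.678), was called lower (-0.14, adjusted p = 0.0292).

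In dentate granule cells, 64.2% of all genes were called against the other 3 neuron types (36.5% higher and 27.6% lower), as were 8 of the 9 members (6 higher and 2 lower). At least 2-fold higher were 4 members, Cacnb2 (1.97, SE 0.07), Cacna1e (1.64, SE 0.09), Cacna1c (1.46, SE 0.05) and Cacnb1 (1.19, SE 0.05), against 17% of all genes. The low levels of Cacnb1 and Cacnb2 in cerebellar granule cells (17.5 and 2.81 TPM) lower the mean with which dentate granule cells were compared. On counts, dentate Cacnb1 was below layer V neurons by a log2 difference of 0.45 and above interneurons by 1.19, and dentate Cacnb2 was 0.49 above interneurons. Cacnb4 was at least 2-fold lower, against 8.59% of all genes. Within batch 1, where interneurons are absent from the comparison, the log2 fold change was 0.80 for Cacna1e and 2.66 for Cacnb2.

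In layer V neurons, 67.6% of all genes were called (35.9% higher and 31.7% lower), as were 8 of the 9 members (3 higher and 5 lower). The 5 called lower than in the other 3 neuron types were the 5 pore genes, with log2 fold changes from -0.88 (Cacna1c) to -0.51 (Cacna1e), none of them past 2-fold. The mean compared with includes the high granule cell levels. On counts, layer V neurons lay above interneurons for Cacna1e (by 1.61) and Cacna1c (by 0.18), and did not differ from dentate granule cells for Cacna1a (adjusted p = 0.653). For Cacna1b and Cacna1d they had the lowest mean TPM of the neuron types. Cacnb1 (1.78, SE 0.05) and Cacnb3 (1.50, SE 0.04) were at least 2-fold higher, against 17.3% of all genes. Within batch 2 these values were 1.83 and 1.53. Both contrasts include the low cerebellar granule cells (17.5 TPM for Cacnb1 and 52.5 TPM for Cacnb3). Over dentate granule cells alone, the log2 difference of layer V neurons on counts was 0.45 for Cacnb1 and 0.73 for Cacnb3, under 2-fold. The contrast for Cacnb2 was 0.73 (SE 0.07), and 1.31 within batch 1, but layer V neurons lay above only the cerebellar granule cells, at 2.81 TPM, and below dentate granule cells (by a log2 difference of 0.93 on counts) and interneurons. Their mean of 19.9 TPM was below the mean of 33 TPM over the other 3 types. The Cacnb2 value was 0.00 on log2(TPM + 1), where it was not called (adjusted p = 0.988). Cacnb4 was not called (-0.06, adjusted p = 0.49), but was lower on log2(TPM + 1), at -0.38 (adjusted p = 0.0018).

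In interneurons, 64.4% of all genes were called (36% higher and 28.4% lower), as were all 9 members (2 higher and 7 lower). Only Cacnb2 was at least 2-fold higher (1.31, SE 0.07), against 18% of all genes, in a comparison that includes the low cerebellar granule cells. On counts, interneurons were below dentate granule cells for this gene, as given above. At least 2-fold lower were Cacna1e and Cacna1c (-1.12, SE 0.05), against 6.64% of all genes. For Cacna1c, the mean compared with includes the high dentate and cerebellar granule cells (30.5 and 18.8 TPM). On counts, interneurons lay below layer V neurons by a log2 difference of only 0.18 for Cacna1c, but by 1.61 for Cacna1e. The other 6 members differed by less than 0.5 on the log2 scale. Cacna1d is counted among the 7 lower (-0.19), but turned direction on log2(TPM + 1), so no direction is given for it, as above. With library totals alone it lost its call (-0.02, adjusted p = 0.801). For Cacnb4, the difference of -0.28 (adjusted p = 0.00237) lost its call with library totals alone (-0.11, adjusted p = 0.247). Cacnb3, at -0.31, lost it on log2(TPM + 1) (-0.15, adjusted p = 0.0819), and Cacna1b, at 0.24, lost it within batch 2 (0.19, adjusted p = 0.0618). The oligodendrocyte markers named above were highest in these libraries, and their part in these values was not tested.

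Between the 2 glial types, 76.1% of all genes were called (39.8% higher and 36.3% lower in astrocytes), as were 6 of the 9 members. Cacnb4 (1.28, SE 0.09, adjusted p = 4.36e-10), Cacnb1 (0.71, SE 0.06), Cacnb3 (0.55, SE 0.06) and Cacna1c (0.27, SE 0.06) were higher in astrocytes, and Cacna1d and Cacnb2 (-0.29, SE 0.09) were higher in microglia. At least 2-fold higher in astrocytes was 1 member, Cacnb4, against 23.1% of all genes. The call for Cacnb2 was lost within batch 2 (-0.18, adjusted p = 0.1). The call for Cacna1c was lost without astrocyte replicate 3 (0.15, adjusted p = 0.0641) or without microglia replicate 1 (0.16, adjusted p = 0.0605). Cacna1a was not called (-0.07, adjusted p = 0.465), but was called lower without astrocyte replicate 1 (-0.21, adjusted p = 0.0432) or microglia replicate 1 (-0.22, adjusted p = 0.031). Cacna1b was not called either (0.00), but was called lower in astrocytes with the length offset (-0.77, adjusted p = 2.45e-06) and on log2(TPM + 1) (-0.77, adjusted p = 1.96e-05), and its TPM ranges, from 5.22 to 7.13 in astrocytes and from 9.45 to 13.3 in microglia, did not overlap. For Cacna1a by TPM, microglia (33.2, 38.8 and 36.7) lay above astrocytes (26.4, 21.6 and 19) with no overlap.

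Set against layer V neurons of the same region, the glial level of a member was often a larger share than that of the pan-neuronal markers. Those 5 markers (Rbfox3, Snap25, Syt1, Tubb3 and Stmn2) had between 10.3% and 18% of their layer V level in astrocytes and between 3.91% and 14% in microglia. Cacnb4 in microglia, at 7.97% of its layer V level, lay within that range, and Cacnb1, at 13.8%, near its top. Cacna1a was at 54.6% and Cacna1b at 71.5% of the layer V level in microglia, and Cacna1d at 174%. Layer V neurons had the lowest mean TPM of the neuron types for each of these genes. Against the mean of the 4 neuron types, the microglia values were 35.1%, 44.8% and 115%. In astrocytes, the members ran from 21.1% (Cacnb3) to 86.2% (Cacna1d) of the layer V level. With transcripts of at least 2000 bases only, Cacna1a averaged 18.1 TPM in microglia and 47.9 TPM in layer V neurons, and Cacna1b 4.22 and 12.7 TPM. How much of the glial signal came from neuronal RNA was not tested.

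**Figure D3:**
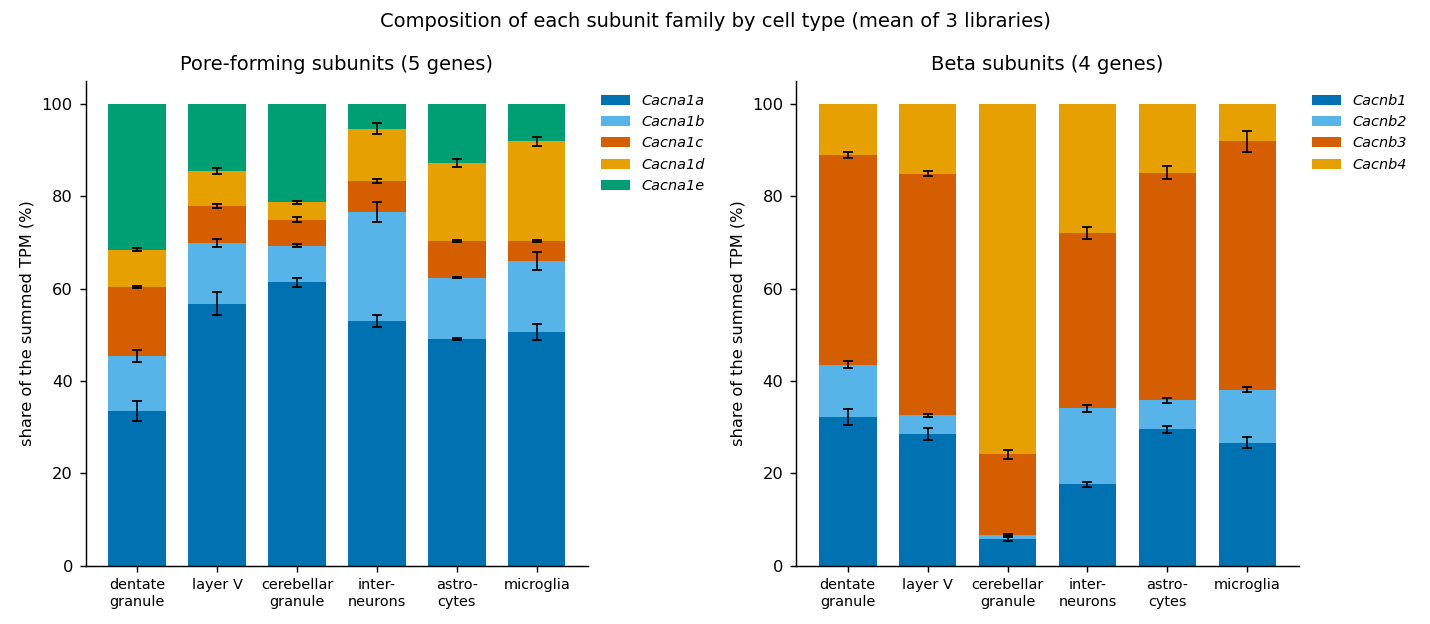
Composition of the pore-forming family (left, 5 genes) and the beta family (right, 4 genes) in each cell type, as each gene's share of the family's summed TPM (%, mean of 3 libraries). Whiskers at each boundary are the SD of the gene below it. Cacnb4 makes up 75.8% of beta mRNA in cerebellar granule cells and at most 27.9% in any other type.

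Cell types differed both in the summed level of each family and in its composition. Summed pore mRNA was highest in cerebellar granule cells, at 336 ± 5.17 TPM, followed by dentate granule cells at 205 ± 4.48, interneurons at 137 ± 5.44 and layer V neurons at 117 ± 0.258 TPM (SD, n = 3). Summed beta mRNA ran in another order, from 482 ± 7.92 TPM in layer V neurons and 390 ± 35.3 in dentate granule cells to 316 ± 9.91 in interneurons and 301 ± 6.5 TPM in cerebellar granule cells. The ratio of beta to pore mRNA was 4.12 ± 0.059 in layer V neurons and 0.896 ± 0.00966 in cerebellar granule cells. Dentate granule cells, at 1.91 ± 0.161, and interneurons, at 2.31 ± 0.0255, lay between them.

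Among beta subunits, Cacnb4 accounted for 75.8% ± 1.01 of the summed TPM in cerebellar granule cells, against 27.9% ± 1.22 in interneurons, 15.1% ± 0.577 in layer V neurons and 11.1% ± 1.35 in dentate granule cells (SD, n = 3). Cacnb3 held between 38.1% and 53.8% in the 5 other cell types and 17.5% ± 0.972 in cerebellar granule cells. The ratio of Cacnb4 to Cacnb3 was 4.36 ± 0.305 in cerebellar granule cells and at most 0.766 in any library of another type.

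Among pore genes, Cacna1a made up 61.4% ± 0.985 of the summed TPM in cerebellar granule cells and 33.4% ± 2.15 in dentate granule cells, the lowest of the 6 types. In dentate granule cells Cacna1e took nearly as much, at 31.5% ± 1.34, while in interneurons it took 5.29% ± 0.928. Cacna1b took its highest share in interneurons, at 23.6% ± 2.08. The L-type genes together made up 23.1% ± 0.467 of pore mRNA in dentate granule cells and 9.36% ± 0.498 in cerebellar granule cells. Shares have no test here, and the transcripts behind each sum, described next, move some of them.

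The order of the 6 cell types by mean TPM gave 45 pairs of neighbours over the 9 genes. The pairs of cell types that were neighbours for at least 1 gene had a high background of calls. Among neuron types, the percentage of all genes called was 63.4% for dentate against layer V, 73.9% for dentate against cerebellar granule cells, 63.9% for dentate against interneurons, 76.1% for layer V against cerebellar granule cells, 60.7% for layer V against interneurons and 75.2% for cerebellar granule cells against interneurons. Against astrocytes it was 74.2% for dentate granule cells, 77.2% for layer V neurons, 82.7% for cerebellar granule cells and 73.2% for interneurons. Against microglia it was 83.2% for layer V neurons, 85.5% for cerebellar granule cells and 80.8% for interneurons, and 76.1% for astrocytes against microglia. Of the 45 neighbours, 33 were called in the direction of the TPM order, 10 were not called, and 2 were called the other way on counts. Those 2 were Cacnb2 in interneurons and dentate granule cells, given above, and Cacna1d in interneurons and microglia (TPM ratio 1.01, log2 fold change on counts -0.21, adjusted p = 0.0109). Not called were 3 pairs each of Cacna1b and Cacna1e, 2 of Cacna1a and 1 each of Cacna1d and Cacnb4. Every neighbour of Cacna1c, Cacnb1 and Cacnb3 was called in order. The order and the calls came from the same libraries, so their agreement in direction is no independent support for the order. The share of the 45 neighbours that was called lay within the range over all genes, from 60.7% to 85.5%.

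For Cacna1a and Cacnb4, pairs of alternative exons of equal length distinguish the main transcripts. Cacna1a, at chr8:84388440-84640246 on the plus strand (GRCm38), has 2 exons of 97 bases, of which a transcript carries 1 or the other. They encode alternative versions of a segment in the cytoplasmic tail of the channel. Both are shown because, in the transcripts examined, the balance between them differed between cerebellar granule cells and the other neuron types. Capitals mark the 37 positions at which the 2 exons differ when aligned without gaps. The upstream exon, at chr8:84614695-84614791, was found in Cacna1a-201, Cacna1a-202 and Cacna1a-211, and the downstream exon, at chr8:84615574-84615670, only in Cacna1a-210, a fragment of 549 bases. Both are wholly coding in the RefSeq annotation, but in GENCODE M21 only the upstream exon is. The reference bases, 5′ to 3′, are these.
Cacna1a upstream exon: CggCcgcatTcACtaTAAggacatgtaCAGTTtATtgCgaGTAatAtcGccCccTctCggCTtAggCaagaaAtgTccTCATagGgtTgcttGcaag
Cacna1a downstream exon: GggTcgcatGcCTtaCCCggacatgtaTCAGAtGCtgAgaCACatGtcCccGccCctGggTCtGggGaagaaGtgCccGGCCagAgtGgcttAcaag

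The downstream exon made up 20.7%, 19.2% and 18.4% of the TPM of these transcripts in cerebellar granule cells. In interneurons it made up 32.3%, 33.7% and 32.8%, in dentate granule cells 47.8%, 53.4% and 52.8%, and in layer V neurons 50.1%, 58.4% and 52.4%. Among these transcripts, cerebellar granule cells were therefore lowest and did not overlap with any other cell type. In TPM terms, Cacna1a-210 took 38.7% of the gene's level in dentate granule cells and 11.1% in cerebellar granule cells. These 4 transcripts covered between 28.8% of the gene's TPM, in a microglia library, and 77.7%, in a dentate library. The exons of Cacna1a-212 and Cacna1a-213, which are not in the annotation used here, were not examined. Cacna1a-213, at 8370 bases the longest of the main transcripts, took 10.5% of the gene's TPM in cerebellar granule cells and at most 1.9% elsewhere. Which exon it carries is not known here, so the difference in exon balance holds only for the 4 transcripts examined.

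Cacnb4, at chr2:52428320-52676831 on the minus strand, has 2 alternative exons of 20 bases. The downstream exon, at chr2:52465894-52465913, was found in Cacnb4-201, Cacnb4-202 and Cacnb4-203. The upstream exon, at chr2:52467144-52467163, was found in Cacnb4-206. The downstream exon is wholly coding in GENCODE M21 and in RefSeq, the upstream exon only in GENCODE M21. Both are shown, written 5′ to 3′ on the strand of the gene with capitals at the 13 positions that differ. They distinguish the transcripts behind the gene with the largest difference between neurons and glia.
Cacnb4 downstream exon: CaaaaCAGAAGCAgAAAgtG
Cacnb4 upstream exon: GaaaaATTTCCTTgCTCgtT

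The upstream exon was the minor form in every library. It made up 4.75%, 5.53% and 4.64% in cerebellar granule cells and 5.68%, 7.53% and 6% in interneurons. It made up 14.2%, 13.3% and 9.14% in dentate granule cells and 22.4%, 15% and 14% in layer V neurons, with no overlap between the former pair of types and the latter. In glia the upstream exon averaged 21.3% in astrocytes and 15.1% in microglia. Among transcripts with the downstream exon, Cacnb4-203 took 35.1% of the gene's TPM in cerebellar granule cells and 33.9% in interneurons, but 18.2% in dentate granule cells and 1.4% in layer V neurons, where Cacnb4-202 took 73.3%. These shares were estimated by kallisto from reads that the transcripts largely have in common and were not tested.

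**Figure D4:**
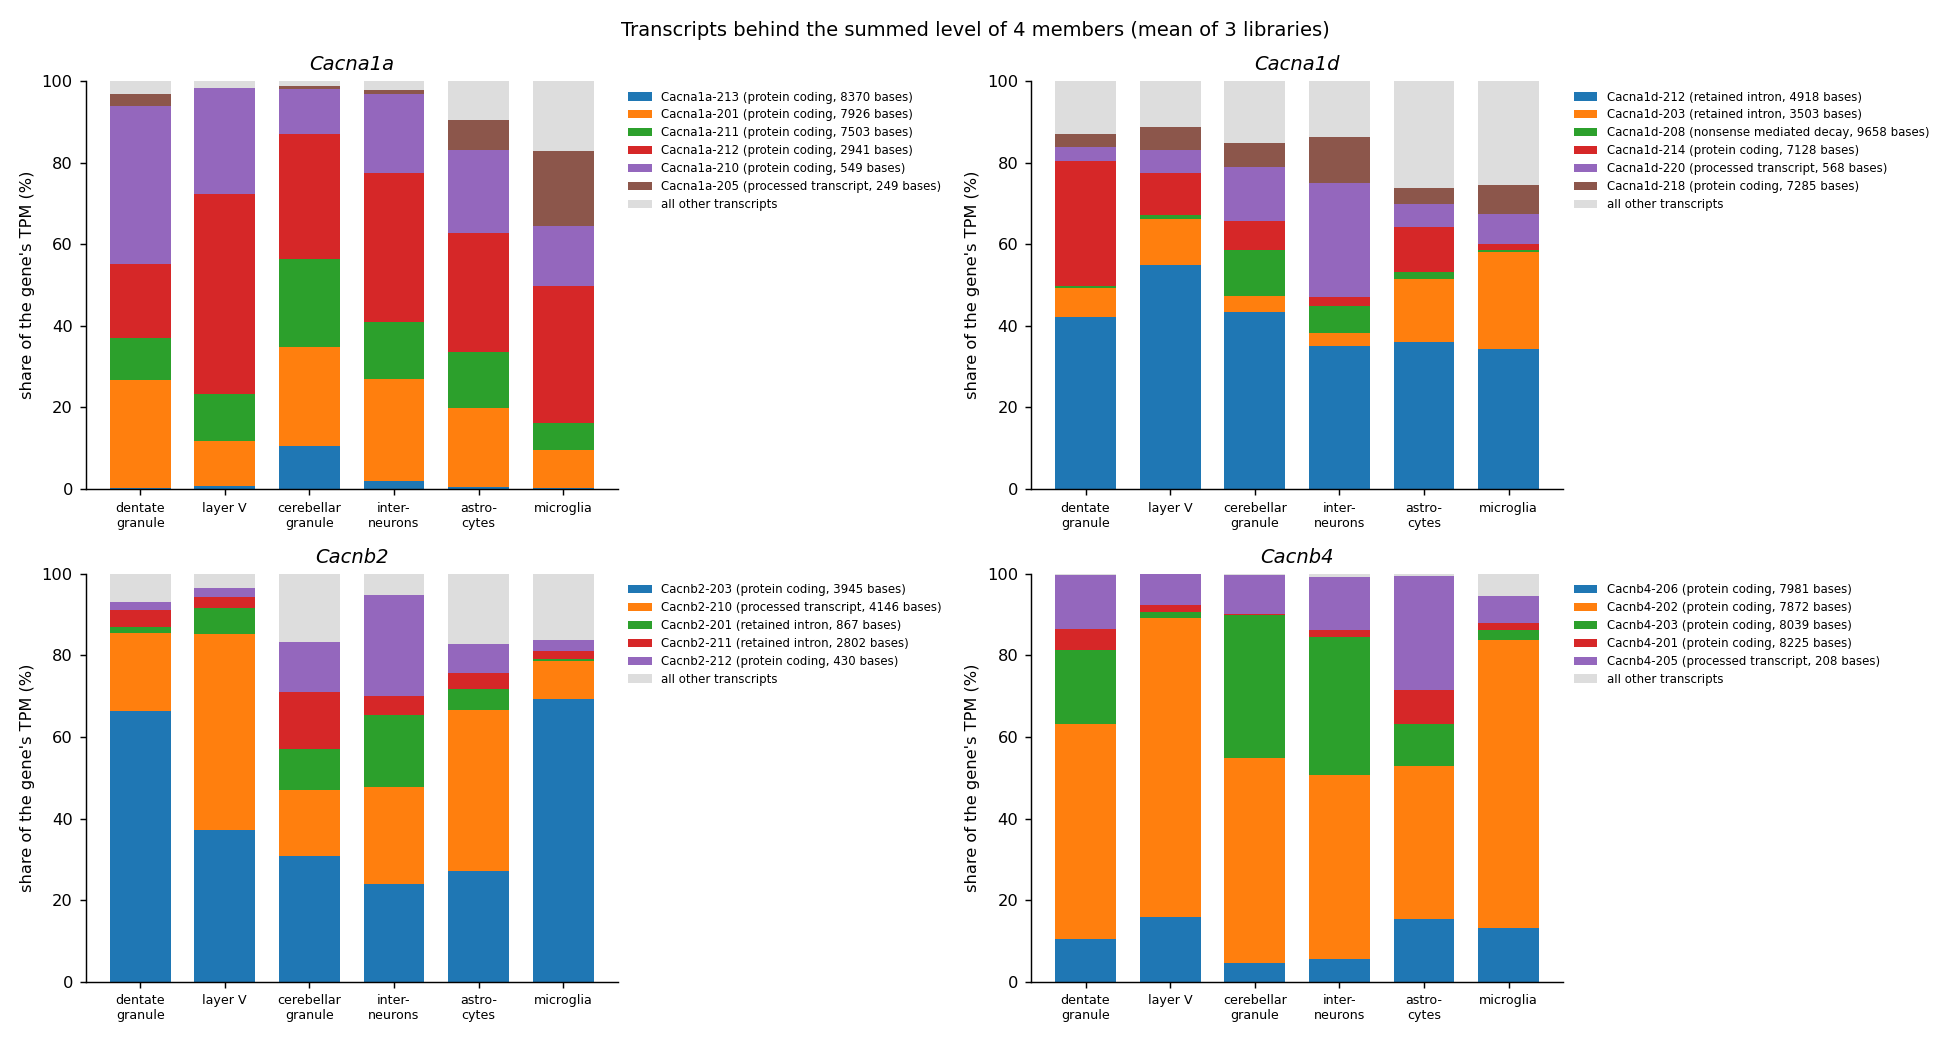
Share of the summed TPM (%, mean of 3 libraries) carried by the main transcripts of Cacna1a, Cacna1d, Cacnb2 and Cacnb4 in each cell type, with the biotype and length of each in the legend. Grey is the sum of all other transcripts. The short transcript Cacna1a-210 and the retained-intron transcript Cacna1d-212 take large shares of their gene's TPM.

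For some members, a large part of the summed TPM came from transcripts that are short or not annotated as protein-coding. For Cacna1d, retained-intron transcripts made up between 41.8% (interneurons) and 70.1% (layer V neurons) of the TPM, and protein-coding ones between 22.3% and 45%. With protein-coding transcripts only, Cacna1d averaged 7.54 TPM in dentate granule cells and 3.68 TPM or less in the 5 other cell types. For Cacnb2, the protein-coding share ran from 41.3% in layer V neurons to 75.6% in microglia. In layer V neurons, Cacnb2-210, a processed transcript of 4146 bases, took 48.1% of the TPM.

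Cacna1a in microglia had 20.1% of its TPM in processed transcripts and 15.4% in retained-intron transcripts, against at most 3.4% and 2.8% in any neuron type. Cacna1b in microglia had 21.4% in Cacna1b-209 and 19.8% in Cacna1b-210, of 684 and 332 bases. By contrast, Cacna1e-203, at 14921 bases, held between 69.9% and 95.2% of Cacna1e, Cacna1c-207 between 62.4% and 75.7% of Cacna1c, Cacnb1-201 between 60.9% and 89.8% of Cacnb1, and Cacnb3-206 between 50% and 78.3% of Cacnb3. With transcripts of at least 2000 bases only, Cacna1a averaged 179 TPM in cerebellar granule cells, 56.3 in interneurons, 47.9 in layer V neurons and 37.7 TPM in dentate granule cells. In dentate granule cells that level was below the one of Cacna1e, at 59.2 TPM in the same setting. Cacnb4 then made up 75.3% of beta mRNA in cerebellar granule cells.

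The alpha2delta subunits, extracellular partners of the same pores, had profiles of their own. A list of 27 genes for other subunits and binding partners was described, of which 26 passed the filter on low counts and Cacng1, a muscle gamma subunit, did not. Cacna2d1 was highest in dentate granule cells, at 101 TPM, and lowest among neurons in interneurons, at 34.2 TPM. Cacna2d2 and Cacna2d3 were highest in interneurons, at 62.3 and 103 TPM. Cacna2d4 did not exceed a mean of 2.19 TPM in any type. Cacna1s and Cacna1f, the pores of skeletal muscle and retina, had means of at most 3.45 and 0.15 TPM.

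In the comparison of neurons with glia, 15 of the 26 partners were called higher and 9 lower, where 83.3% of all genes were called (36.4% higher and 46.8% lower). The median log2 fold change was 0.89, against -0.18 for all genes. Cacna2d1 was higher by 2.51 (adjusted p = 8.98e-17). Gem, a small GTPase that inhibits calcium channels, was lower by -3.55 and Rrad, of the same family, by -2.54. Gem averaged 10.8 TPM in astrocytes and Rrad 11.9 TPM in microglia, and neither exceeded a mean of 2.77 TPM in a neuron type. The related Rem1 had the lowest log2 fold change, -4.76, but averaged under 1 TPM in every type.

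Cerebellar granule cells stood lower in 17 partners and higher in 6 (median -0.93, against -0.21 for all genes), where 77.9% of all genes were called (43% lower and 34.9% higher). Rimbp2, which links presynaptic calcium channels to the release machinery, averaged 0.29 TPM there and 123.6, 95.7 and 74.8 TPM in dentate, layer V and interneuron libraries (log2 fold change -8.56, adjusted p = 6.31e-18). Cacng6, a gamma subunit, was listed at 0 in all 3 libraries there and averaged 2.86 TPM in dentate granule cells and 1.97 TPM in layer V neurons. Cachd1, an alpha2delta-like protein, was lower by -4.48. Cacna2d2 was higher by 1.71, and Cacna2d3 was lower by -2.65.

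In dentate granule cells, 12 partners were called higher and 10 lower, against 64.2% of all genes called in either direction, with log2 fold changes of -3.59 for Cacna2d2, 2.99 for Rimbp2 and -2.20 for the channel-inhibiting GTPase Rem2. In layer V neurons, 16 were higher and 6 lower, against 67.6% of all genes, with Rimbp2 at 3.24. Rem1, again under 1 TPM, and the low Cacng6 had larger fitted values. In interneurons, 12 were higher and 9 lower, against 64.4% of all genes, with Cachd1 at 3.06, Cacna2d2 at 2.99, Rimbp2 at 2.33 and Stac2 at 2.08. The level of Rimbp2 near 0 in cerebellar granule cells lowers the mean with which each other neuron type was compared. Between the glial types, 14 partners were higher in astrocytes and 7 in microglia, against 76.1% of all genes, with Cachd1 (3.68) and Cacna2d2 (2.51) higher in astrocytes and Rrad (-3.26) and Stac3 (-2.53) higher in microglia. For Cacna1f the value was -3.32, at means of 0.02 and 0.15 TPM.

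Across the 18 libraries, genes with the profile most like that of each member were sought among 12822 protein-coding genes by Pearson correlation of log2(TPM + 1). Replicates of a cell type are not independent of each other in these correlations, so they describe the shape over 6 types and carry no test. Cacna1a was most like Tent4b (r = 0.99), Tbc1d25 and Ulk1, and Cacnb4 most like Lrrc49 (r = 0.99), Nap1l2 and Dennd5b. Cacna1c was most like the potassium channel gene Kcnj6 (r = 0.99), Tmem108 and Zfp667, and Cacna1e most like Nptx1 (r = 0.99), Celf1 and Kpna4. Cacnb3 was most like Ensa (r = 1.00) and Arpc5l, Cacnb1 most like Phactr1 (r = 0.99), Dmrtc1a and Prmt8, and Cacnb2 most like the cation channel gene Trpc4 (r = 0.99) and Epha6. Cacna1b was most like Tmem87b (r = 0.99), Adar and Luc7l. Cacna1d had the weakest match, with Tars2 (r = 0.94), Mbd1 and Arv1.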

How the data were processed

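RiboTag mRNA libraries were made by the authors with a stranded kit, trimmed with cutadapt (version 3.5) and quantified with kallisto (version 0.46.2) against GENCODE M24 transcripts (GRCm38). The estimated counts per transcript that the authors deposited are not normalized. The TPM values, also as deposited by the authors, divide these by effective transcript length and sum to 1000000 per library. Estimated counts share reads between similar transcripts, so gene sums are firmer than single transcripts.

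From these files, counts and TPM were summed per gene over 142552 transcripts. One library per replicate was used (18 of 22), taking batch 1 where a replicate was sequenced in both batches. Summed counts were rounded, genes filtered with filterByExpr by cell type (20524 of 55385 kept), scaled by TMM and fitted with edgeR (version 4.0.16) in R (version 4.3.3), with 1 mean per cell type for all 18 libraries and Benjamini-Hochberg adjustment. SE is the absolute log2 fold change divided by the square root of F. The procedure was tested on simulated data. Group contrasts weight cell types equally. The samples are separate mice or pools, so p-values cover the spread between 3 replicates. Levels are means ± SD. Exon positions came from GENCODE M21 and bases from RefSeq GRCm38.p6. By versioned ID, 99 of the 116 transcripts of the members matched M21.

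The members and lists were chosen with earlier results of these data known. Named were all members, all 4 Cacna2d genes, Cacna1s and Cacna1f, up to 3 other partners per comparison with the largest called log2 fold change, the 3 most alike protein-coding genes per member (highest cell type mean of at least 5 TPM; some are not reported here), and the transcripts with the highest shares. Cacng1 and the exon pairs were named after their values were seen. Alternatives were DESeq2 (version 1.42.0), limma (version 3.58.1) on log2(TPM + 1), other scaling, filters, batches and left-out replicates. The authors' sleuth comparisons were not used here.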

Additional observations from a re-analysis of the deposited data

How the results depend on the processing

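The number of members called in each of the 6 comparisons stayed within 1.5 times its main value under every alternative run (main counts 9, 8, 8, 8, 9 and 6, between 5 and 7 for astrocytes against microglia when 1 replicate was left out). Of 630 log2 fold changes under other settings, 591 kept direction and call, 17 lost the call, 5 gained it and 17 turned direction. For Cacna1b in astrocytes against microglia (main 0.00), DESeq2 gave -0.0248, library totals -0.12, the transcript length offset -0.77 and limma-trend -0.77 (both now called), batch as a term -0.0332, batch 2 alone -0.0366, the female share as a covariate -0.000164 and the replicate block -0.000915, with leave-one-out values from -0.148 to 0.0941. For Cacna1b in dentate granule cells the value was -0.0129 with no filter and -0.0319 with the length offset (leave-one-out -0.00458 to 0.0617). For Cacna1d in cerebellar granule cells it was -0.14 with library totals, -0.0565 with the length offset and -0.0702 with limma-trend, and in interneurons 0.16 with the length offset and 0.31 with limma-trend. For Cacna1a in astrocytes against microglia it was 0.0301 with no filter and 0.0159 with transcripts of at least 2000 bases (leave-one-out -0.222 to 0.0418), and -0.60 with the length offset, now called. Leave-one-out values of Cacna1e there ran from -0.00732 to 0.293. The cause of these changes was not tested.

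Replicate numbers did not pair the samples: same-numbered samples of different types correlated between -0.10 and 0.11 (median 0.04), others between -0.12 and 0.13. With the replicate block, the Cacna1b value of -0.000915 given above was the only direction of a member that turned, and no call was gained or lost. Restricting to protein-coding transcripts moved mean TPM to between 0.222 and 0.997 of the main value, and to transcripts of at least 2000 bases, chosen after seeing the data, to between 0.380 and 0.999. Batch 2 libraries in place of batch 1 moved it to between 0.974 and 1.10. Batch 2 holds 1 library each of dentate granule cells, layer V neurons, cerebellar granule cells and astrocytes. Interneurons and microglia have no batch 1 library, so their values within batch 1 could not be computed.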

Other observations

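The batch 2 library of layer V replicate 1 is labelled male and its batch 1 library female. In the batch 2 library Xist was at 2.13 TPM, Ddx3y at 0.034 TPM and Eif2s3y at 0.101 TPM, whereas the male-labelled layer V replicate 3 had 0.0063, 27 and 24.2 TPM. This library enters only the alternative settings that use batch 2.

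In the 4 replicates with a library in each batch, the TPM of the 9 members in batch 2 was between 0.922 and 1.32 times that in batch 1 (median 0.995 over 36 values).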
